A study of Drosophila melanogaster with 6 samples.

Results

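Tubulins are the building blocks of microtubules. An alpha-tubulin and a beta-tubulin protein pair into the dimer that polymerizes, and gamma-tubulin sits in a ring-shaped complex from which new microtubules grow. Drosophila carries several genes for each kind, called isotypes, of which some are used in most cells and others mainly in the germline or in particular tissues. In developing eyes, microtubules run along photoreceptor axons, support the tall epithelial cells and form the spindle of the last divisions that give rise to bristle groups.

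The members described here are the 10 tubulin genes alphaTub84B, alphaTub84D, alphaTub85E, alphaTub67C, betaTub56D, betaTub60D, betaTub85D, betaTub97EF, gammaTub23C and gammaTub37C, picked by name from the 17649 genes of the deposited table, and all 10 have a row there. The study sequenced RNA of eyes dissected from wild-type Canton S pupae, without treatment or transgene, at 40 h after puparium formation (APF) and at 21 h APF, to ask how gene expression changes while the eye is patterned. Each stage had 3 biological replicates, every one a pool of dissected eyes. The deposited values are FPKM, counts of fragments scaled to transcript length and to library size, and the table holds 1 FPKM per gene and stage, which the authors pooled over the replicates. No SD or interval across replicates can therefore be given for any gene below, and every level is the authors' pooled value. The authors' own test results were not used, and no test was run here. Depth per library was not part of the table. The ratio of the stages is log2((FPKM at 40 h + 0.1)/(FPKM at 21 h + 0.1)), so that a positive value is a higher level at 40 h; the added 0.1 understates differences of genes near 0. A gene was counted as different between the stages at 1.5-fold or more, a size and not a significance.

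Total FPKM came to 562299 at 40 h against 557572 at 21 h, and across the 9828 genes that reached 1 FPKM at a stage the median log2 ratio was -0.02. Of these 9828 genes, 41.2% were past 1.5-fold, with 22.6% higher and 18.7% lower at 40 h. All 11 genes of an eye marker list, among them the photoreceptor genes chp and gl, were found at both stages, between 1.41 and 164 FPKM at 40 h and between 18.6 and 369.8 FPKM at 21 h. Each was lower at 40 h, 7 of them past 1.5-fold, beside 18.7% of the 9828 genes, and 4 within it. The widest gaps among the better expressed ones were those of ro, with 1.41 FPKM at 40 h against 18.6 FPKM at 21 h, chp, and hbs, with 55.5 FPKM at 40 h against 113 FPKM at 21 h. These were bulk samples, in which fewer cells of a type and less RNA per cell cannot be told apart.

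Most tubulin genes were within 1.5-fold between the stages, as were most genes counted, and the most abundant ones were slightly higher at 40 h. With at least 1 FPKM at a stage, 8 of the 10 members could be counted. Of these, 2 were past 1.5-fold, both higher at 40 h (betaTub97EF and betaTub85D), and 6 were within it. Of the 9828 genes counted, 41.2% were past 1.5-fold, and 22.6% were past it higher at 40 h. The 8 members had a median log2 ratio of 0.28, beside -0.02 for all genes counted. betaTub85D reached 1 FPKM at 40 h only, so a difference was needed for it to be counted. The other 2 members, alphaTub67C and gammaTub37C, stayed under 1 FPKM at both stages. At 1 FPKM or more at both stages there were 7 members, 6 of which were higher at 40 h, beside 48.5% of the 8627 genes that reached that level. None of the 4 members with at least 100 FPKM at a stage (alphaTub84B, alphaTub84D, betaTub56D and betaTub60D) was past 1.5-fold, whereas 41.7% of the 1101 genes of that abundance were; this minimum was chosen after the values were seen.

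**Figure D1:**
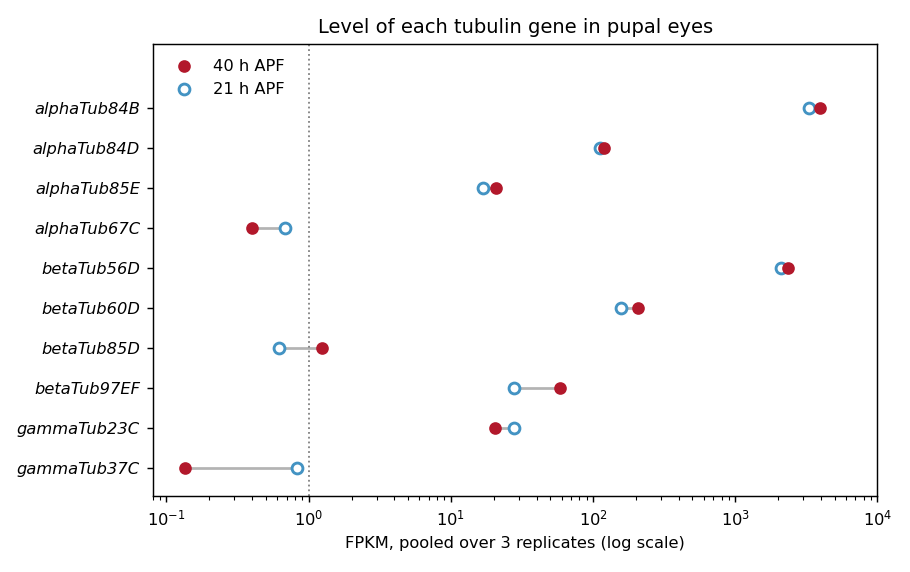
FPKM of the 10 tubulin genes on a log axis, with filled points for 40 h APF and open points for 21 h APF, each the authors' value pooled over 3 replicates; the dotted line marks 1 FPKM. The genes range from 0.136 to 3926 FPKM at 40 h, and betaTub97EF and the genes near or under 1 FPKM have the widest gaps between the stages.

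alphaTub84B (FBgn0003884; 3R, bases 7086599 to 7088839 of BDGP6, plus strand) encodes the main alpha-tubulin of somatic cells and was the most abundant tubulin mRNA of the eye. It had 3926 FPKM at 40 h against 3295 FPKM at 21 h APF. Those levels placed it 8th among all genes at 40 h and 10th at 21 h. The log2 ratio was 0.25, a 1.19-fold higher value at 40 h, and 34.7% of the genes counted had a larger ratio.

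alphaTub84D (FBgn0003885; 3R, bases 7530753 to 7532732, plus strand) encodes an alpha-tubulin almost identical to that of alphaTub84B. Its level was 120.2 FPKM at 40 h against 112 FPKM at 21 h, with a log2 ratio of 0.10, the ratio nearest 0 of all members. alphaTub84B stood 32.7-fold above alphaTub84D at 40 h and 29.4-fold above it at 21 h. How the reads of the near-identical coding regions were divided between the 2 genes is not known, so each of the levels is uncertain, that of alphaTub84D more so. Summed, the 2 genes had 4047 FPKM at 40 h against 3407 FPKM at 21 h and a log2 ratio of 0.25.

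alphaTub85E (FBgn0003886; 3R, bases 9731221 to 9733250, minus strand) encodes an alpha-tubulin known from muscle and from cells of sense organs. In these eyes it had 20.7 FPKM at 40 h against 16.7 FPKM at 21 h, a log2 ratio of 0.31. It was 0.509% of the alpha-tubulin FPKM sum at 40 h and 0.487% of it at 21 h.

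alphaTub67C (FBgn0087040; 3L, bases 9681268 to 9683370, plus strand) encodes the maternal alpha-tubulin that is loaded into the egg. It was at 0.398 FPKM at 40 h against 0.682 FPKM at 21 h, with a log2 ratio of -0.65. Of 11 ovary and germline markers, none was at 0, and only grk and Yp3 reached 1 FPKM at a stage. These went opposite ways, grk with 5.64 FPKM at 40 h against 7.67 FPKM at 21 h and Yp3 with 6.71 FPKM against 2.56 FPKM. The list summed to 13.4 FPKM at 40 h against 12.4 FPKM at 21 h, mostly from grk and Yp3. The part of the list in the value of alphaTub67C was not tested.

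betaTub56D (FBgn0284243; 2R, bases 19447319 to 19451600, minus strand) encodes the main beta-tubulin and was the second most abundant member. Its level was 2365 FPKM at 40 h, 15th among all genes, and 2093 FPKM at 21 h, 18th among all genes. The log2 ratio was 0.18. alphaTub84B was 1.66-fold above betaTub56D at 40 h and 1.57-fold above it at 21 h.

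betaTub60D (FBgn0003888; 2R, bases 24305881 to 24313099, plus strand) encodes the beta-tubulin that in embryos marks the mesoderm and developing muscle. It had 206 FPKM at 40 h against 156 FPKM at 21 h, the third highest level of the members at either stage. The log2 ratio of 0.40 lies inside 1.5-fold, and 28.9% of the genes counted had a larger one. betaTub60D was 9.94-fold above alphaTub85E at 40 h and 9.37-fold above it at 21 h.

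Muscle markers were set beside alphaTub85E and betaTub60D because both are known from muscle. The 15 muscle markers summed to 46.2 FPKM at 40 h against 81.2 FPKM at 21 h, and none was at 0. Of the 15, 10 were higher and 5 lower at 40 h. Of the 10 that reached 1 FPKM at a stage, 6 were past 1.5-fold higher and 3 past 1.5-fold lower at 40 h. Among all genes counted, 22.6% were past it higher and 18.7% lower. The 6 higher ones, named after their values were seen, were up (log2 ratio 3.36), Mlc1 (2.71), wupA (2.66), Act88F (1.68), TpnC73F and Act79B (1.01). All of them but Act79B reached 1 FPKM at 40 h only, so a difference was needed for them to be counted. Act79B had the highest level of the 6 at 40 h, with 2.66 FPKM at 40 h against 1.27 FPKM at 21 h. The 3 lower ones were Mef2, Act57B and sls. The most abundant marker was sls, with 21.7 FPKM at 40 h against 44.5 FPKM at 21 h. Mef2, the transcription factor of muscle, was at 3.51 FPKM at 40 h against 16.5 FPKM at 21 h. Mhc, the muscle myosin heavy chain, named after its value was seen, was at 0.794 FPKM at 40 h against 0.0214 FPKM at 21 h. The 14 markers of ciliated sensory neurons and their sheath cells, of which none was at 0, summed to 73.8 FPKM at 40 h against 78.0 FPKM at 21 h. Of the 12 counted, 3 were past 1.5-fold higher and 9 past 1.5-fold lower, beside 22.6% and 18.7% of all genes counted. Oseg2 reached 1 FPKM at 40 h only and btv, unc and dila at 21 h only, so they needed a difference to be counted. nompA, a matrix protein of the sheath cell of bristles, had the largest ratio, with 43.2 FPKM at 40 h against 1.04 FPKM at 21 h. Lower at 40 h were dila (log2 ratio -2.85) and the intraflagellar transport genes Oseg4 (-1.78) and Oseg6 (-1.58), the last with 5.59 FPKM at 40 h against 16.9 FPKM at 21 h. The part of either list in the tubulin values was not tested.

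betaTub97EF (FBgn0003890; 3R, bases 27967008 to 27988384, minus strand) encodes a beta-tubulin found in a subset of tissues. It had 58.8 FPKM at 40 h against 28.0 FPKM at 21 h, a log2 ratio of 1.06 and the largest of any member. It was also the only member past 1.5-fold that was above 1 FPKM at both stages. Of the genes counted, 13.9% had a larger ratio. Its rank among all genes was 1699 at 40 h and 3275 at 21 h. Neuron markers were set beside it, and they did not all go one way. Of 10 genes, 6 were past 1.5-fold higher at 40 h, beside 22.6% of all genes counted, among them Snap25 (51.2 FPKM at 40 h against 19.0 FPKM at 21 h) and brp (168 FPKM at 40 h against 75.7 FPKM at 21 h), which act at synapses. Another 2, chp and gl, which are also on the eye marker list, were past it lower. The level of chp was 164 FPKM at 40 h against 369.8 FPKM at 21 h, and that of gl 132 FPKM against 235 FPKM. The other 8 were higher at 40 h, elav and Appl within 1.5-fold, Appl with 237 FPKM at 40 h against 199 FPKM at 21 h. The sum over the list, chp and gl included, was 1231 FPKM at 40 h against 1208 FPKM at 21 h. No gene of the list was at 0, and the part of the list in the value of betaTub97EF was not tested.

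betaTub85D (FBgn0003889; 3R, bases 9408383 to 9410282, minus strand) encodes the beta-tubulin of the male germline, which builds the sperm tail. Its level was 1.25 FPKM at 40 h against 0.622 FPKM at 21 h, and the log2 ratio was 0.90. Of 15 testis markers, 2 reached 1 FPKM at a stage, can and mia. Both reached it at 21 h only, so a lower value at 40 h was needed for them to be counted. The level of can was 0.301 FPKM at 40 h against 1.86 FPKM at 21 h, and that of mia 0.857 FPKM against 2.00 FPKM. The list summed to 4.0 FPKM at 40 h against 5.06 FPKM at 21 h, and 2 of its genes, Mst84Dc and sa, were at 0 at both stages. Among the other 13, 7 were higher and 6 lower at 40 h. Whether any RNA of the male germline was in these samples was not tested.

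gammaTub23C (FBgn0260639; 2L, bases 2972891 to 2974858, plus strand) encodes the gamma-tubulin of somatic centrosomes. It was at 20.5 FPKM at 40 h against 28.0 FPKM at 21 h, with a log2 ratio of -0.45, and was the only member above 1 FPKM at both stages that was lower at 40 h. Of the genes counted, 23.8% had a smaller ratio.

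gammaTub37C (FBgn0010097; 2L, bases 19183863 to 19185726, minus strand) encodes the maternal gamma-tubulin, used in ovaries and early embryos. It had 0.136 FPKM at 40 h against 0.829 FPKM at 21 h, and its log2 ratio of -1.98 was the lowest of the members. Both levels are low, and the ratio depends on the amount added before the logarithm, being -0.69 with 1 FPKM added.

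Mitosis markers were set beside the gamma-tubulin genes, of which gammaTub23C was within 1.5-fold and gammaTub37C was under 1 FPKM at both stages. All 12 markers were past 1.5-fold lower at 40 h, beside 18.7% of all genes counted, with log2 ratios between -4.57 (polo) and -1.73 (aurA). They summed to 38.8 FPKM at 40 h against 412 FPKM at 21 h, with none at 0. String (stg), the phosphatase that triggers mitosis, was at 12.8 FPKM at 40 h against 166 FPKM at 21 h. CycA was at 9.55 FPKM at 40 h against 59.3 FPKM at 21 h, and aurB and Incenp, of the complex that guides chromosomes and division, had log2 ratios of -4.37 and -4.30. The log2 ratio of gammaTub23C was -0.45, and the part of dividing cells in it was not tested.

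**Figure D2:**
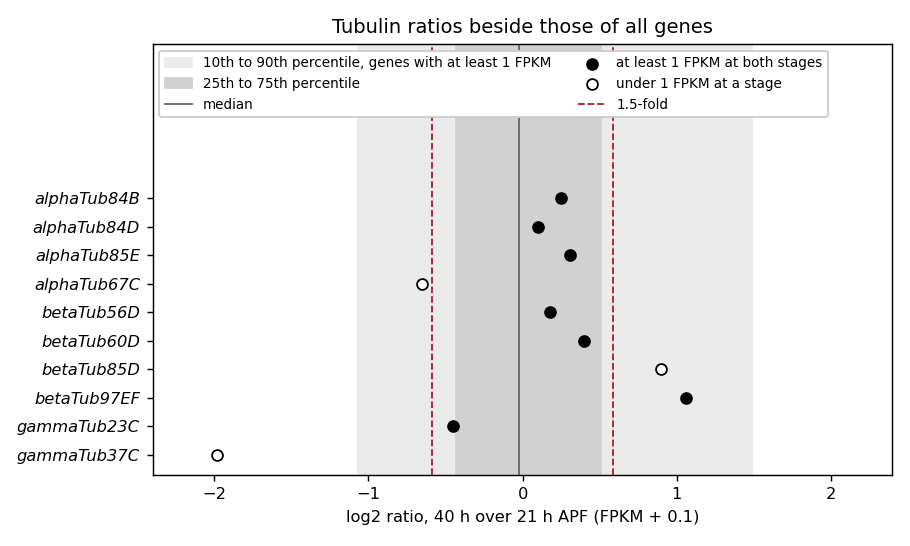
Log2 ratio of 40 h over 21 h APF for the 10 tubulin genes, over grey bands for the middle of the distribution of the 9828 genes with at least 1 FPKM at a stage; filled points reached 1 FPKM at both stages, open points were under it at a stage, and dashed lines mark 1.5-fold. Of the filled points, only betaTub97EF at 1.06 lies outside the dashed lines.

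By level, the order at 40 h was alphaTub84B, betaTub56D, betaTub60D, alphaTub84D, betaTub97EF, alphaTub85E, gammaTub23C, betaTub85D, alphaTub67C and gammaTub37C. At 21 h the order was alphaTub84B, betaTub56D, betaTub60D, alphaTub84D, betaTub97EF, gammaTub23C, alphaTub85E, gammaTub37C, alphaTub67C and betaTub85D. betaTub97EF was 2.87-fold above gammaTub23C at 40 h, against a ratio of 1.00 at 21 h. The 3 genes at the bottom stood in opposite orders at the stages, betaTub85D leading them at 40 h and gammaTub37C at 21 h. Without values of single replicates, it cannot be said which neighbours in these orders differ beyond their spread. The position between alphaTub85E and gammaTub23C at 40 h rests on 20.7 against 20.5 FPKM.

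Since FPKM is per length of transcript, the genes were added up by kind. The members differ in their number of introns, which limits how strictly their levels, and so the sums and shares, can be compared. The alpha-tubulin genes summed to 4068 FPKM at 40 h against 3425 FPKM at 21 h, 1.19-fold higher at 40 h, and the beta-tubulin genes summed to 2631 FPKM at 40 h against 2278 FPKM at 21 h, 1.15-fold higher. The ratio of the alpha sum to the beta sum was 1.55 at 40 h and 1.5 at 21 h. Together they made up 1.19% of the FPKM of all genes at 40 h and 1.02% of it at 21 h. The gamma-tubulin genes went the other way, with 20.6 FPKM at 40 h against 28.9 FPKM at 21 h, so that alpha and beta mRNA stood 325-fold above gamma mRNA at 40 h and 198-fold above it at 21 h.

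One isotype dominated each kind at both stages. alphaTub84B was 96.5% of the alpha sum at 40 h and 96.2% at 21 h, and gammaTub23C was 99.3% of the gamma sum at 40 h and 97.1% at 21 h. betaTub56D was 89.9% of the beta sum at 40 h and 91.9% at 21 h, leaving 10.1% at 40 h and 8.11% at 21 h to the other beta genes. Of this remainder, betaTub60D held 7.83% of the beta sum at 40 h and 6.85% at 21 h, and betaTub97EF 2.23% at 40 h and 1.23% at 21 h. The 3 beta genes other than betaTub56D summed to 266 FPKM at 40 h against 185 FPKM at 21 h, a log2 ratio of 0.52. The alpha genes other than alphaTub84B took 3.47% of the alpha sum at 40 h and 3.78% at 21 h.

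**Figure D3:**
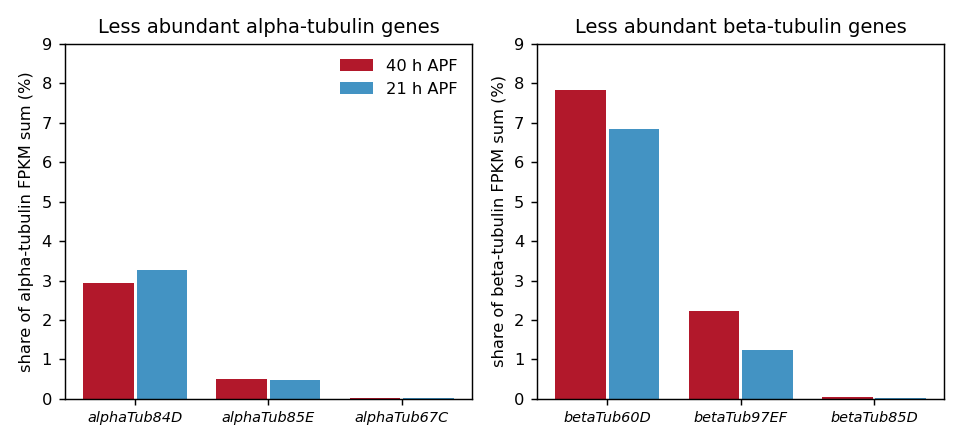
Share of the alpha-tubulin FPKM sum (left) and of the beta-tubulin FPKM sum (right) taken by the genes other than alphaTub84B and betaTub56D, with red bars for 40 h and blue bars for 21 h APF. The bars of betaTub60D and betaTub97EF are taller at 40 h, and that of alphaTub84D is taller at 21 h.

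The table also holds 2 tubulin-like genes outside the members. CG7794 was at 0.424 FPKM at 40 h against 1.5 FPKM at 21 h, and CG32396, annotated as betaTub65B, was at 0.0264 FPKM at 40 h against 0.0135 FPKM at 21 h. Adding them to the sums left the shares of alphaTub84B and betaTub56D as they were to 3 digits.

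The members lie on 4 chromosome arms, with 5 genes on 3R, 2 on 2L, 2 on 2R and 1 on 3L. In the Ensembl annotation none of the 10 has an exon base in common with another gene, and each is alone at its locus in the deposited table. Their exons cover between 1560 bases (alphaTub85E) and 2518 bases (betaTub60D). alphaTub84D has no intron, and betaTub97EF has 6 and spans 21377 bases. The aligner does not split reads across introns, so levels of members with different numbers of introns are not strictly comparable.

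The gamma-tubulin ring complex holds gamma-tubulin together with the Grip proteins. Of its 7 partner genes, 6 reached 1 FPKM and 5 of these were within 1.5-fold. Grip71 was past it lower, beside 18.7% of all genes counted, with 5.24 FPKM at 40 h against 14.0 FPKM at 21 h (log2 ratio -1.40). Grip84, a core subunit, was the most abundant of the partner genes, at 14.2 FPKM at 40 h against 17.5 FPKM at 21 h. Grip128 was at 5.68 FPKM at 40 h against 6.56 FPKM at 21 h. The median log2 ratio of the 6 genes was -0.16. The small subunit gene Mzt1 (CG42787 in the table) was listed at 0 at both stages.

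Of 13 centriole and centrosome genes, 7 were past 1.5-fold lower and 1 past it higher at 40 h, beside 18.7% and 22.6% of all genes counted, with a median log2 ratio of -0.64. The count of 7 was 4 at 2-fold and 1 with a minimum of 10 FPKM, since most of the lower genes of this list were under 10 FPKM. spd-2, which recruits material to the mitotic centrosome, was at 0.476 FPKM at 40 h against 5.05 FPKM at 21 h (log2 ratio -3.16). Sas-4 and Sas-6, which build the centriole, had log2 ratios of -1.37 and -0.98. Cp110, a cap of the centriole end, was the one higher, at 34.5 FPKM at 40 h against 21.1 FPKM at 21 h. Plp, the pericentrin-like protein, had the highest level of the list, 43.6 FPKM at 40 h against 37.9 FPKM at 21 h.

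New tubulin is folded by the chaperone ring CCT, to which prefoldin delivers it, and the dimer is then assembled by tubulin cofactors. All 8 CCT subunit genes were lower at 40 h, between 86.5 and 136 FPKM at 40 h and between 111 and 179 FPKM at 21 h. Their median log2 ratio was -0.42, and 1 of the 8 was past 1.5-fold, beside 41.2% of all genes counted. This was CCT2, with 102 FPKM at 40 h against 156 FPKM at 21 h. CCT5 was the most abundant, at 136 FPKM at 40 h against 179 FPKM at 21 h, and CCT1 and CCT8 had log2 ratios of -0.47 and -0.45. The 6 prefoldin genes were all within 1.5-fold, with a median log2 ratio of 0.06. The 5 cofactor genes and Arl2, a GTPase that acts with them, were likewise all within it, with log2 ratios between -0.43 for TBCD and 0.41 for TBCC. The highest levels among them were those of TBCA (CG1890 in the table), with 78.9 FPKM at 40 h against 92.5 FPKM at 21 h, and TBCB, with 37.8 FPKM at 40 h against 44.2 FPKM at 21 h. The CCT ring folds actin and other proteins as well as tubulin.

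Enzymes that add or remove chemical groups on tubulin were the next list. Of 16 listed genes, 15 were found in the table by name and 9 reached 1 FPKM at a stage, of which 3 were past 1.5-fold higher and 1 past it lower at 40 h, a share near that of all genes counted. Atat (CG3967 in the table), the alpha-tubulin acetyltransferase, was at 47.7 FPKM at 40 h against 19.0 FPKM at 21 h, a log2 ratio of 1.32. The remaining ones belong to the tubulin tyrosine ligase-like family, whose members add amino acids to tubulin tails. TTLL15 was at 29.2 FPKM at 40 h against 8.86 FPKM at 21 h, TTLL4A at 31.7 FPKM at 40 h against 19.1 FPKM at 21 h, and TTLL4B at 5.25 FPKM at 40 h against 12.9 FPKM at 21 h.

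All 19 listed genes of microtubule-associated proteins reached 1 FPKM at a stage, of which 5 were past 1.5-fold higher and 4 past it lower at 40 h, with a median log2 ratio of 0.19; the background for either direction together was 41.2%. The 5 higher ones were pigs (log2 ratio 2.21), tau (2.15), CLIP-190 (1.49), Map205 (0.83) and futsch (0.61). The 4 lower ones were asp (-3.71), mei-38 (-1.67), Map60 (-1.25) and Mapmodulin (-0.59). Those named here besides pigs, tau and asp were chosen after their values were seen. The axonal protein gene tau was at 198 FPKM at 40 h against 44.7 FPKM at 21 h, and asp, whose product focuses spindle poles, was at 0.330 FPKM at 40 h against 5.55 FPKM at 21 h. The most abundant genes of the list were Jupiter, with 1029.6 FPKM at 40 h against 729 FPKM at 21 h, and stai, the stathmin that binds free tubulin dimers, with 351 FPKM at 40 h against 334 FPKM at 21 h.

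Of 9 genes for severing and depolymerizing enzymes, 6 reached 1 FPKM at a stage and 5 of these were within 1.5-fold. Of all genes counted, 41.2% were past 1.5-fold. The spastin gene spas was at 34.6 FPKM at 40 h against 23.8 FPKM at 21 h, and the katanin gene Kat60 at 28.5 FPKM at 40 h against 38 FPKM at 21 h. The highest levels were those of Klp10A, a microtubule-depolymerizing kinesin, with 55.7 FPKM at 40 h against 60.7 FPKM at 21 h, and kat-60L1, with 42.0 FPKM at 40 h against 40.3 FPKM at 21 h. Klp67A, a kinesin that shortens spindle microtubules, was past it, with 0.853 FPKM at 40 h against 12.0 FPKM at 21 h (log2 ratio -3.66).

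**Figure D4:**
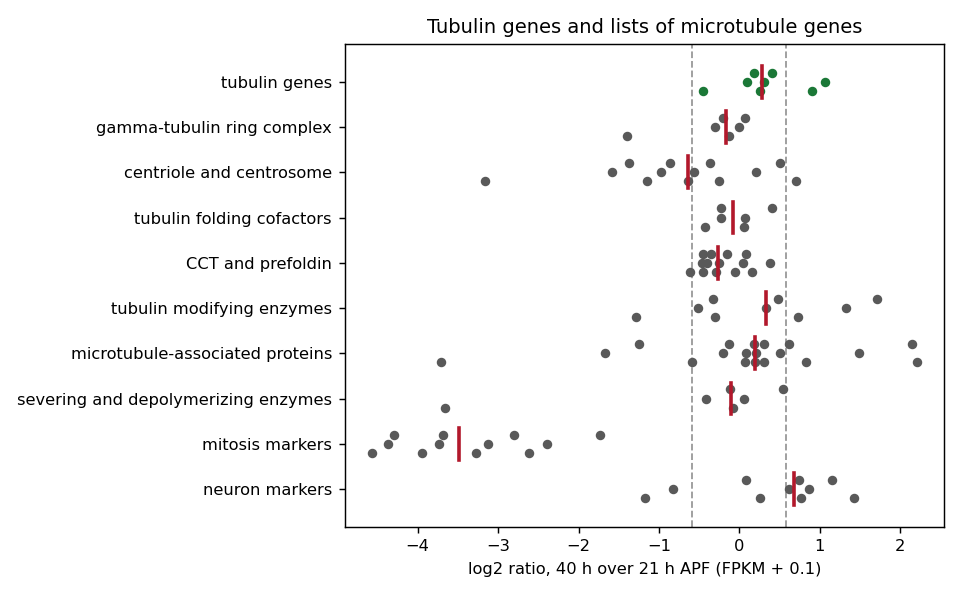
Log2 ratio of 40 h over 21 h APF for each gene with at least 1 FPKM at a stage, by list, with the median of a list as a red bar and dashed lines at 1.5-fold; the vertical offset of points has no meaning. The tubulin genes (green) spread from -0.45 to 1.06, whereas microtubule-associated proteins spread from -3.71 to 2.21 and the mitosis markers all lie left of the lower dashed line.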

How the data were processed

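Eyes of Canton S pupae were compared at 40 and 21 h APF, with 3 biological replicates per stage and 6 libraries. The authors aligned reads to BDGP6 (Ensembl release 93) with bowtie2 and quantified genes in Cuffdiff, with its geometric normalization and a bias correction; versions are not given in the sources used here. They deposited FPKM pooled over the replicates, 1 value per gene and stage, in 1 table. It also holds their own fold change, test score, p-value, q-value and significance mark, which were not used. A library that stands apart could therefore not be looked for, and the precision of a value is not known.

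Ratios used 0.1 FPKM added to both stages, and counts the genes with at least 1 FPKM at a stage and a difference of at least 1.5-fold. In every list, a gene under 1 FPKM at 1 of the stages entered the counts only through the stage where it was higher. Positions, introns and shared exon bases came from Ensembl release 115, in which 9 of the 10 members have the same gene ID as in the table; betaTub60D was matched by symbol and position. Listed genes were matched by symbol or by RefSeq synonyms. Named were all members and, per list, the 2 genes with the highest FPKM and the 3 with the largest absolute ratio among those with at least 5 FPKM, with the exceptions stated. Members and lists were chosen with earlier results of these data known. Counting was tested on simulated data. Alternatives were other amounts added, folds and minimums, centring and rescaling. Python 3.11.15, numpy 2.4.6, pandas 2.3.3 and matplotlib 3.10.9 were used.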

Additional observations from a re-analysis of the deposited data

How the results depend on the processing

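No member's log2 ratio changed sign under other amounts added (1 or 0.01 FPKM), centring on the median (a shift of -0.021) or rescaling to the same sum (a shift of 0.012), and 40 of these 41 values, with the sum of alphaTub84B and alphaTub84D counted in, stayed within 1.5-fold of the reported one. The exception was gammaTub37C, at -0.69 with 1 FPKM added. The count of 2 members past 1.5-fold higher at 40 h became 1 with 1 FPKM added, at 2-fold or with a minimum of 10 FPKM, and 0 with a minimum of 100 FPKM; the count of 0 lower became 2 with no minimum. Of 98 counts over the lists of microtubule genes under alternatives, 7 moved by over 1.5 times, 4 of them at 2-fold, 2 with a minimum of 10 FPKM and 1 with no minimum. Among them, the 7 centriole and centrosome genes lower at 40 h became 4 at 2-fold and 1 with a minimum of 10 FPKM. The minimum of 100 FPKM and the sum of alphaTub84B and alphaTub84D were added after seeing the data. No paired analysis was possible because the deposited columns hold 1 value per stage and carry no replicate numbers, and for the same reason no replicate could be left out.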
